A study of Mus musculus with 2 samples.

Results

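The genes described here encode the large molecular chaperones of the mouse: Hsp70 and its Hsp110 relatives, Hsp90, the DnaJ (J-domain) co-chaperones, and the chaperonins. They were taken by symbol from the array's platform annotation (symbols starting with Hspa, Hsp90, Dnaj or Cct plus a digit, and Hspd1, Hspe1, Hsph1 and Tcp1), with the small Hspb heat shock genes left out. This gave 72 genes with 182 probe sets, out of 18193 named genes and 45037 probe sets on the array. A further 3 probe sets are listed with several symbols, at least 1 of them such a symbol, and were left out. A gene read only by such probe sets would be absent here. The Hsp90 class holds 2 genes, Hsp90aa1 and Hsp90b1, and Hsp90ab1 is not among the 72 genes. Their signal was compared between skeletal myoblasts (proliferating muscle precursor cells) that were wild type (WT) or knockout (KO) for Foxj3, a forkhead transcription factor gene. Each genotype was 1 culture on 1 Affymetrix array. Both cultures were at passage 3, in medium with 20% serum and antibiotics, and were harvested at 80% confluence. The strain, age and number of the source animals, the cells in which the gene was deleted and the part of it that was removed are not given in the sources used here.

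Chaperones bind unfolded or unstable proteins and help them fold, assemble or be degraded. Hsp70 proteins do this in cycles of ATP hydrolysis that J-domain proteins start and nucleotide exchange factors end, and Hsp90 takes over many kinases and transcription factors at a late step. The chaperonins are closed chambers: CCT (also called TRiC), in the cytosol, folds actin and tubulin, and Hspd1 with its lid Hspe1 works in the mitochondrial matrix. Separate sets serve the endoplasmic reticulum (ER) and mitochondria, and in muscle cells chaperones take part in the folding of actin and myosin. Heat shock factors bind repeats of GAA and its complement TTC in promoters of cytosolic and mitochondrial chaperone genes, and ATF6 with NF-Y binds the ER stress response element of ER chaperone genes.

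Promoter sequence is shown for the genes in which one of these elements was found, because the results are ordered by the same compartments. RefSeq promoter windows (GRCm38.p6, 250 bases before to 50 after a transcript start) were matched for 59 of the 72 genes, with 77 windows in all. The ER stress response element was searched on both strands as CCAAT and CCACG with 9 free bases between them. It was in 0.119% of all 32851 windows and in those of 3 chaperone genes, all of the ER lumen: Hspa5, which encodes BiP, the Hsp70 of the ER; Hsp90b1, which encodes Grp94, the Hsp90 of the ER; and Dnajc3, which encodes P58IPK, a J-domain partner of BiP. Of the 8 genes of the ER lumen, 7 had a window. The stretches below read 5′ to 3′ on the gene's strand with the element in capitals. They lie at chr2:34771990-34772078 (plus strand), chr10:86705498-86705691 (minus strand, 2 matches) and chr14:118937792-118937880 (plus strand).
Hspa5: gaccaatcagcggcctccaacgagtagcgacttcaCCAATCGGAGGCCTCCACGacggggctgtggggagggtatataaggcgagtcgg
Hsp90b1: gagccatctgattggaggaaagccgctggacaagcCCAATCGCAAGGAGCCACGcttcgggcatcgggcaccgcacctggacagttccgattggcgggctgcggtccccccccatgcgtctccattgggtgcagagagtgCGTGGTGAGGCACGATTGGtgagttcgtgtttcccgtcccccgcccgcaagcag
Dnajc3: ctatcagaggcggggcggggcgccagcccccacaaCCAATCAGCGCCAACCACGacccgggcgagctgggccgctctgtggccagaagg

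The heat shock element was searched on both strands as GAA, TTC and GAA with 2 free bases between neighbours, which on the other strand reads TTC, GAA and TTC. It was in 0.603% of all windows and in those of 4 chaperone genes, Hspd1, Hspe1, Hsph1 and Dnajb6. Hspd1 and Hspe1 lie head to head and share 1 stretch, chr1:55088024-55088111, printed on the strand of Hspd1 (minus) with its 2 overlapping matches in capitals. The stretch of Dnajb6 is chr5:29735817-29735897 (plus strand). The match of Hsph1 lies past its transcript start and is not printed.
Hspd1 and Hspe1: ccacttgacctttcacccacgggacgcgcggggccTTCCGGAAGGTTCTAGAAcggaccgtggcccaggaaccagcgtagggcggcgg
Dnajb6: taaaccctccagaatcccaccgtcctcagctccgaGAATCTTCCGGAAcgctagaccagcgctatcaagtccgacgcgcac
A forkhead core site, TGTTTAC or its complement GTAAACA, was in 3.65% of all windows and in those of 3 chaperone genes, Dnajb12, Dnajc10 and Dnajc6. A match of letters is a description of the window and not a site shown to be bound.

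Signal is a linear intensity without unit, every ratio is KO over WT, and pairs of values give WT first and KO second. A probe set was called measured when it was over a floor of 47.04, the 40th percentile of all values, on at least 1 array, and values under the floor were set to it before taking log2. Each gene is given by its probe set with the highest mean signal, its main probe set. Of 14597 measured genes on the array, a ratio of 2-fold or more was seen upward in 544 and downward in 981. With 1 array per genotype there is no test and no p-value, and each number describes these 2 libraries. Foxj3 read 495.51 and 77.28 by its main probe set, but 79.74 and 99.40 by the other measured one, so it does not settle the labels. Markers of differentiated muscle differed strongly. All 10 were measured and lower in the KO library, 9 of them at least 2-fold, and their summed signal was 23665 in WT and 5443 in KO cells. All 10 markers of myoblasts were measured too, with 5 above 0 and 5 below. Their summed signals were 9705 and 9802, of which Chrna1 made up 3029 and 3104. Myod1 read 631 and 1751, 2.77-fold higher, and Des 2024 and 1091, 1.86-fold lower, but 0.82 on the log2 scale at its other probe set. On that scale the main probe sets of Vcam1, Met and Pax7 were at 0.09, 0.20 and 0.29. Their other probe sets were at 2.59 and 2.97 (Vcam1), 2.21 (Met) and 1.27 (Pax7). Those of Ncam1 ranged from -1.35 to 1.02. The summed signals use main probe sets only. Of the fibroblast, endothelial and leukocyte markers, 5 of 8, 3 of 6 and 3 of 6 were measured, with summed signals of 945 and 1077, 184 and 259, and 607 and 549; Thy1, Lum, Fap, Pecam1, Tek, Tie1, Ptprc, Cd68 and Itgam were under the floor on both arrays. The part of these differences in the results below was not tested. In bulk RNA, fewer cells of a type and less RNA per cell cannot be told apart.

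Most chaperone genes differed by less than 2-fold between the libraries by their main probe sets. On that reading 11 of 13 measured ER genes and 6 of 6 measured genes of mitochondrial J-domain proteins read lower in KO cells. Of all 9 measured mitochondrial genes 7 did, and their J-domain group was split off with the values seen. Of all measured genes, 53.7% did. With the mean over the probe sets of each gene, 9 of these ER genes and 6 of these J-domain genes read lower. With the median over measured probe sets, Hspa13, Hsp90b1, Dnajc10 and Dnajc14 of the ER turned above 0, at log2 ratios of 0.13, 1.74, 0.51 and 0.04. The mitochondrial Dnaja3 turned too, at 0.04, and the other genes of both sets kept their sign. For several of them it could not turn by combining probe sets. Dnajb9, Dnajb11, Dnajc4, Dnajc15 and Dnajc30 have 1 probe set each, and Dnajc28 has 1 measured probe set. Of the 72 genes, 62 were measured, 58 of them over the floor on both arrays. Hspa12a alone, 1 gene or 1.61%, was higher in the KO library by 2-fold or more, where the background over all measured genes was 3.73%. At least 2-fold lower were 4 genes (6.45%), Dnaja4, Dnajc3, Hspa14 and Dnajb2, where the background was 6.72%. Both shares were near or under the background. At a lower threshold of 1.5-fold, 5 genes were higher (8.06%, background 12.8%) and 20 lower (32.3%, background 19.3%). With the mean over the probe sets of each gene, these counts were 4 (background 8.73%) and 12 (background 11.3%). Of the 20 by the main probe set, 8 were genes of the ER, 4 of mitochondria and 8 of the cytosol and nucleus. By main probe sets, 37 of the 62 log2 ratios (59.7%) were below 0, beside 53.7% of all genes, and 25 (40.3%) above 0, beside 46.3%. The median log2 ratio was -0.28, beside -0.06 for all measured genes. The other measured probe sets of these genes were split, with 46 above 0 and 45 below. With the mean over the probe sets of each gene, the median was -0.025, beside -0.018 for all measured genes. The remaining 10 genes were under the floor on both arrays: Hspa1a, Hspa1l, Hspa12b, Cct6b, Dnajb3, Dnajb7, Dnajb8, Dnajc5b, Dnajc5g and Dnajc22. Several of these, such as Hspa1l, Dnajb3 and Dnajb8, are known mainly from the testis.

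**Figure D1:**
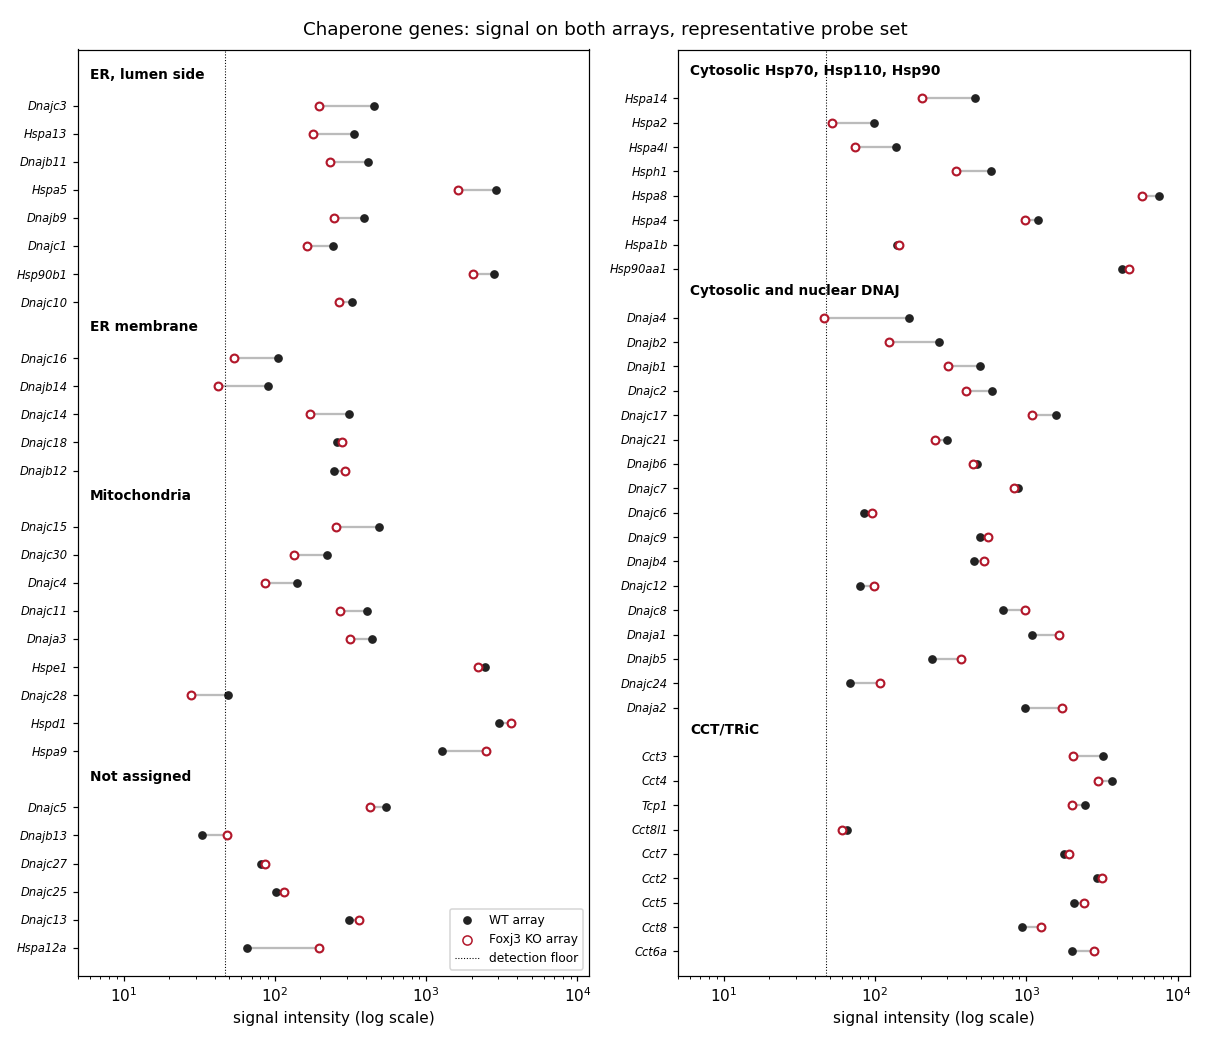
Signal intensity (log axis) of the 62 measured chaperone genes on the WT array (filled points) and the Foxj3 KO array (open points), by compartment, with the detection floor of 47.04 as a dotted line. All 8 genes of the ER lumen read lower on the KO array by their main probe set, while the CCT subunits lie close together on both arrays.

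By compartment, the ER genes had the lowest median. Of 13 measured ER genes, 11 had a log2 ratio below 0 (84.6%) and 1 was at least 2-fold lower (7.69%), with a median log2 ratio of -0.82. In mitochondria 7 of 9 were below 0 (77.8%), with a median of -0.49 and none at least 2-fold in either direction. In the cytosol and nucleus 18 of 34 were below 0 (52.9%) and 3 were at least 2-fold lower (8.82%), with a median of -0.09. Of all measured genes, 53.7% were below 0 and 6.72% at least 2-fold lower. The 6 genes assigned to no compartment had a median of 0.13. These medians have no error of their own. The differences among probe sets of the same gene, described below, were of the same order. Signal level also moved with the ratio: among all genes with a mean signal between 200 and 400, where 16 chaperone genes lay, the median log2 ratio was -0.18 and 61.9% were below 0. In that range 12 of the 16 chaperone genes were below 0, with a median of -0.63. Between 800 and 1600 the median of all genes was 0.17, and that of 7 chaperone genes 0.43.

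**Figure D2:**
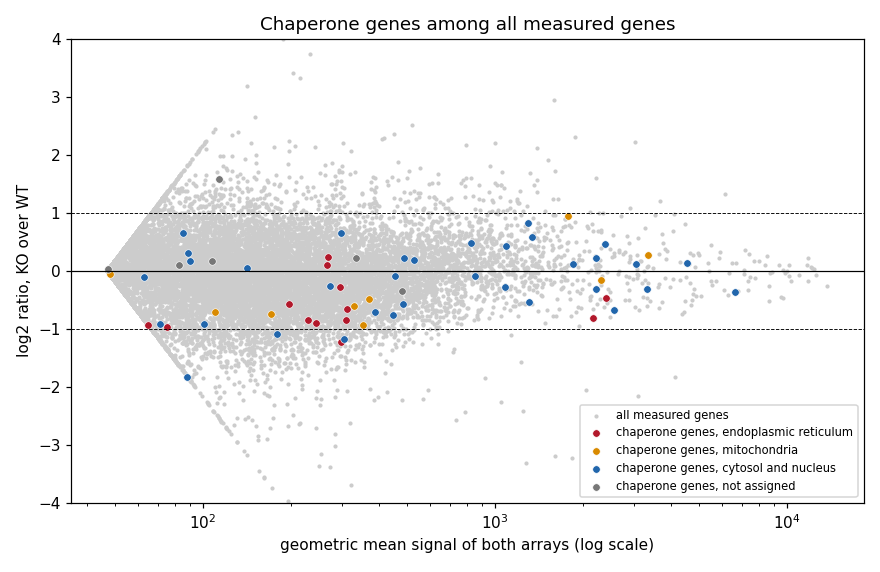
Log2 ratio (KO over WT) against the geometric mean signal of both arrays (log axis) for all measured genes in grey and chaperone genes in colour by compartment. Dashed lines mark 2-fold, and 3 grey genes lie outside the vertical axis. Red and orange points of the ER and mitochondria lie mostly below 0 at signals between 200 and 400.

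In the ER lumen, the Hsp70 and Hsp90 genes were lower by their main probe sets. Hspa5 (BiP) gave a signal of 2878 in WT and 1631 in KO cells, a 1.76-fold lower level (log2 ratio -0.82). Its other probe sets read 851 and 233, and 1523 and 1490, so all 3 were lower and the size ranged from about level to 3.64-fold. Hspa13, a microsomal Hsp70-like protein, read 332 and 178 (log2 ratio -0.90). Among its 3 other probe sets 2 lay above 0, reading 9.97 and 116.5, and 21.8 and 75.3, with both WT values under the floor. Hsp90b1 (Grp94) read 2818 and 2040 (log2 ratio -0.47) by its main probe set. Its second one read 66.1 and 1013, at the opposite sign and with the largest ratio of all chaperone probe sets (log2 ratio 3.94). The direction of Hsp90b1 therefore rests on which probe set is read.

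The J-domain genes of the lumen were lower as well by their main probe sets. Dnajc3, a co-chaperone of BiP, read 455 and 195, 2.33-fold lower (log2 ratio -1.22). Its other probe sets had log2 ratios from -0.98 to 0.02, and 3 of 4 were below 0. Dnajb11 (ERdj3), which hands unfolded proteins to BiP, read 414 and 230 (log2 ratio -0.85). Dnajb9 (ERdj4), a J-domain partner of BiP in ER-associated degradation, read 390 and 247 (log2 ratio -0.66). Dnajb11 and Dnajb9 had 1 probe set each and could not be checked against another. Dnajc1 (ERdj1) read 241 and 162 (log2 ratio -0.58), and 1 of its 3 further measured probe sets was above 0. It is a membrane protein that binds ribosomes outside and BiP inside the ER, and is counted here with the lumen genes for the latter. The median of the lumen genes by main probe sets was -0.82 over 7 genes without it. Dnajc10 (ERdj5), a disulfide reductase, read 324 and 266 (log2 ratio -0.28), but its remaining pair of probe sets lay above 0, at 0.51 and 0.52. Counted by probe set and not by gene, 16 of the 23 measured probe sets of the 8 lumen genes were below 0 (69.6%), beside 51.1% of all measured probe sets. Of these 23, a 2-fold ratio was reached by 2 in each direction.

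Genes of J-domain proteins embedded in the ER membrane were split. Dnajc16 read 105.0 and 53.8 (log2 ratio -0.97), and its second probe set was at -0.93. Dim genes depended on the floor: with it at the 60th percentile Dnajc16 was at -0.28, Dnajb14 at -0.05 and, in the cytosol, Hspa2 at -0.18. Dnajb14 read 89.4 in WT cells and was under the floor in KO cells (lower by at least 1.90-fold), and its other probe set was lower too, at 75.3 and 47.7. Dnajc14 read 307 and 171 (log2 ratio -0.84), with both other probe sets of opposite sign. Dnajb12 (247 and 292) and Dnajc18 (256 and 276) were slightly higher in the KO library. Dnajb12 and Dnajb14 are J-domain partners of cytosolic Hsp70 in the degradation of ER membrane proteins, and they differed in direction here.

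In mitochondria, the J-domain genes read lower by their main probe sets, while the folding machines had no common direction. Dnajc15, a J-domain protein of the inner membrane, read 488 and 255 (log2 ratio -0.94). Dnajc30 read 221 and 133 (log2 ratio -0.74) and Dnajc4 read 140 and 85.6 (log2 ratio -0.71). Each of these 3 genes had a single probe set. Dnajc11, of the complex that shapes the cristae, read 406 and 268 (log2 ratio -0.60), and both other measured probe sets were also below 0. Dnaja3 (Tid1), which works with mitochondrial Hsp70 in the matrix, read 438 and 312 (log2 ratio -0.49), with both other probe sets at 0.04. Dnajc28 was at the floor (49.1 and under it).

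Hspa9, which encodes mortalin, the Hsp70 of the matrix, read 1280 and 2474 by its main probe set, 1.93-fold higher (log2 ratio 0.95). Another 2 probe sets read 1523 and 1353, and 1527 and 1440, both slightly lower in the KO library. A further one was under the floor at 7.55 in WT and reached 358 in KO cells, higher by at least 7.60-fold. The last was near the floor in WT, at 48.5, and under it in KO cells. No common direction can be read from them. The chaperonin Hspd1 (Hsp60) read 3023 and 3660 (log2 ratio 0.28), and Hspe1 (Hsp10) 2439 and 2188 (log2 ratio -0.16), with 786 and 979 (0.32) at its other probe set. The 2 genes of the shared promoter printed above thus stayed within 1.25-fold at every probe set.

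In the cytosol, the constitutive Hsp70 gene Hspa8 (Hsc70) read 7511 and 5809 (log2 ratio -0.37). Its other probe sets had log2 ratios of -0.20, -0.20 and 0.20, all under 1.5-fold. The stress-inducible genes Hspa1a and Hspa1b are near-identical copies whose probe sets may read both. The Hspa1a probe set was under the floor on both arrays. Hspa1b read 139 and 144 (log2 ratio 0.05) by its main probe set, with -0.80 and -0.30 at the others. Hspa2 read 97.9 and 51.9 (log2 ratio -0.92) by 1 probe set. Hspa14, part of the ribosome-associated complex, read 458 and 203, 2.26-fold lower (log2 ratio -1.17), and its other measured probe set read 274 and 236. Hspa12a, a distant Hsp70 relative not assigned to a compartment here, read 65.2 and 196, 3.01-fold higher (log2 ratio 1.59). Its 3 other probe sets were under the floor on both arrays.

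The Hsp110 genes, nucleotide exchange factors of Hsp70, were all lower by their main probe sets, with a median log2 ratio of -0.76 over 3 genes. Hsph1 (Hsp105) read 585 and 344 (log2 ratio -0.76), but 177 and 204 at its other probe set. Hspa4l read 138 and 73.5 (log2 ratio -0.91), and 2 of its 3 other measured probe sets were below 0, while the remaining one was at 0.004. Hspa4 (Apg-2) read 1197 and 984 (log2 ratio -0.28), with 1 of 3 other probe sets below 0. Hsp90aa1, the inducible cytosolic Hsp90, read 4306 and 4756 (log2 ratio 0.14) by its main probe set. A further one read 320 and 2148, 6.71-fold higher, and 2 others were higher at log2 ratios of 0.55 and 0.84, while the last was lower at -0.64. For this gene 4 of 5 probe sets lay above 0, with sizes from 1.10-fold to 6.71-fold.

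**Figure D3:**
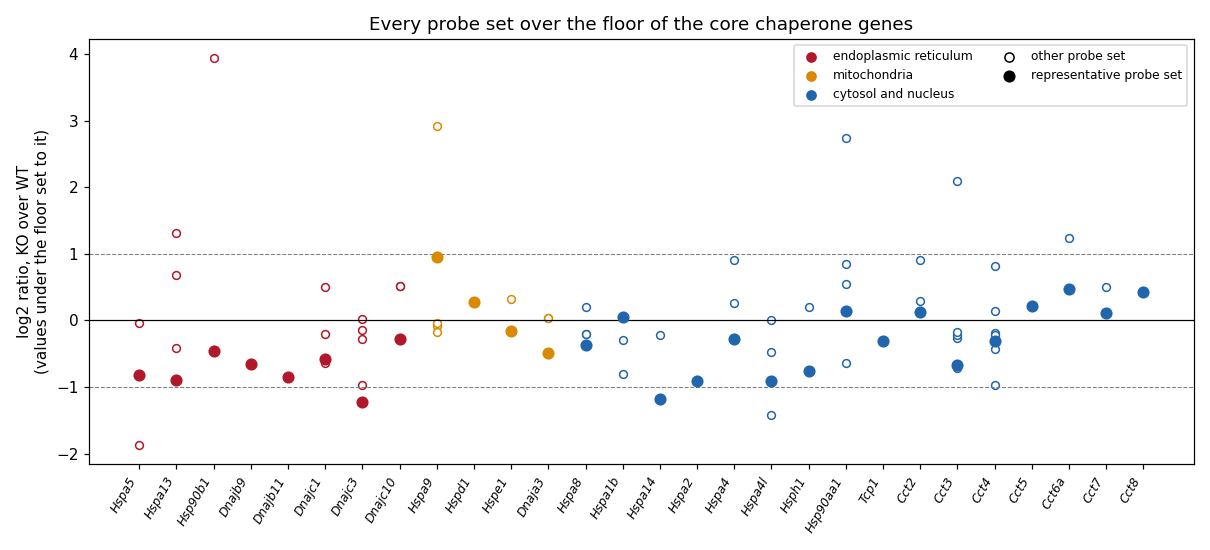
Log2 ratio (KO over WT) of every probe set over the floor on at least 1 array for core chaperone genes, with the main probe set of each gene filled and the others open, coloured by compartment. Dashed lines mark 2-fold. The open points at 3.94 (Hsp90b1), 2.93 (Hspa9), 2.75 (Hsp90aa1) and 2.09 (Cct3) stand far from the filled points of the same genes.

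The cytosolic J-domain genes of class A, which assist Hspa8 in protein folding and import, and of class B did not share a direction. Dnaja2 read 974 and 1731 (log2 ratio 0.83), with a second probe set at 321 and 532 and the others at 0.13 and -0.02. Dnaja1 read 1094 and 1638 (log2 ratio 0.58), but 455 and 192 (-1.24) at a second probe set and 316 and 320 at the third. Dnaja4 read 166 in WT and was under the floor in KO cells, lower by at least 3.54-fold, while its other probe sets were dim and level at log2 ratios of 0.12 and -0.11. Dnaja4 was the gene with the lowest ratio, and no second probe set showed it. With the floor at the 60th percentile its log2 ratio was -0.95, under 2-fold. Dnajb1 (Hsp40), the heat-inducible partner of Hsp70, read 494 and 303 (log2 ratio -0.71), and 221 and 268 (0.28) at its other probe set. Dnajb2, which carries ubiquitin-interacting motifs, read 263 and 123, 2.13-fold lower (log2 ratio -1.09), by its only probe set. Dnajb4 read 453 and 529 (log2 ratio 0.22), with 1.18 and -0.30 at the others. Dnajb6, an anti-aggregation chaperone found at the Z-disc of muscle, read 470 and 441 (log2 ratio -0.09), with log2 ratios from -0.62 to 1.55 at its other probe sets.

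The brightest class C genes of the cytosol and nucleus stayed under 2-fold by their main probe sets. Dnajc7 (Tpr2), which links Hsp70 to Hsp90, read 884 and 831 (log2 ratio -0.09). Dnajc8, a spliceosome-associated protein, read 703 and 979 (log2 ratio 0.48), and its other probe set 479 and 577. Dnajc9, a histone co-chaperone, read 493 and 561 (log2 ratio 0.19). Dnajc17 read 1574 and 1084 (log2 ratio -0.54), and its dim other probe sets were lower too, at 66.8 and 95.8 in WT and under the floor in KO cells, the latter by at least 2.04-fold. Dnajc2 (zuotin-related factor), of the ribosome-associated complex with Hspa14, read 593 and 397 (log2 ratio -0.58), but its other measured probe sets were at -0.90 and 1.70. The remaining 10 measured genes, all J-domain genes of class B or C, ranged from -0.34 to 0.65, with 8 above 0 and none at least 2-fold in either direction.

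The subunits of CCT were close on both arrays. Over 9 measured genes the median log2 ratio was 0.11, with 5 above 0, 4 below and none at least 2-fold (Cct6a reached 1.05 with quantile scaling), and the sign of the median turned to -0.09 with quantile scaling and -0.04 with loess scaling. Higher in the KO library were Cct6a (2014 and 2792, log2 ratio 0.47), Cct8 (937 and 1259, 0.43), Cct5 (2060 and 2391, 0.21), Cct2 (2912 and 3170, 0.12) and Cct7 (1774 and 1921, 0.11, a sign that turned with the same 2 scalings). Lower were Cct3 (3220 and 2023, log2 ratio -0.67), Cct4 (3701 and 2973, -0.32, but 0.14 without probe sets named _s_at or _x_at), Tcp1 (2459 and 1991, -0.30) and the dim Cct8l1 (65.2 and 60.6, -0.11). The Cct3 probe sets ranged from -0.72 to 2.09, the last at 116 and 494, and 5 of 6 were below 0. Cct6a had a second probe set at 1533 and 3618 (1.24), and both probe sets of Cct7 and all 3 of Cct2 were above 0. Each CCT ring holds the subunits in equal number, and here their signals did not share a direction.

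Probe sets of the same chaperone gene differed as much as the genes did. Of the 182 probe sets, 153 exceeded the floor on 1 or both arrays. Of these 71 were above 0 (46.4%, background 48.9%) and 82 below (53.6%, background 51.1%). A ratio of 2-fold or more upward was seen in 11 (7.19%, background 5.62%), and downward in 9 (5.88%, background 6.67%). A 4-fold ratio was reached upward in 4 (2.61%, background 0.694%) and downward in 0 (background 0.579%). These 4 were the discordant probe sets of Hsp90b1, Hspa9, Hsp90aa1 and Cct3, and none was the main probe set of its gene. Over all genes, 133 of the 10460 measured probe sets that were not the main one were 4-fold or more higher and 49 as much lower. In 36 genes at least 2 probe sets exceeded the floor on each array, and all of these shared a sign in 10 (27.8%), against 42.5% of 4752 such genes on the whole array. The pooled SD of log2 ratios within a gene was 0.78 for chaperone genes and 0.66 for all genes. Chaperone genes had more such probe sets each (106 in 36 genes, against 12090 in 4752). The part of this number and of the SD in the share with 1 sign was not tested. Of the 4 genes at least 2-fold lower, 3 had other measured probe sets, and in 1 of these, Hspa14, all shared the sign. The 62 main probe sets had a median log2 ratio of -0.28 and the 91 others 0.004. Over all genes those medians were -0.06 and 0.03. A 2-fold ratio is 1 on the log2 scale, close to this SD. That spread leaves out differences between cultures and animals.

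Reading all probe sets of a gene in place of 1 moved several groups toward 0. Part of this is by construction for the mean, because probe sets under the floor on both arrays enter it at 0. Hspa12a, with 3 of these, moved from 1.59 to 0.40. By main probe sets the median of all chaperone genes was -0.28, beside -0.06 for all measured genes. With the median over measured probe sets it became -0.033, beside -0.022 for all measured genes. With the mean over probe sets it became -0.025, beside -0.018, so little of the difference from all genes was left under either. This mean gave medians of -0.36 for the ER genes and -0.13 for the mitochondrial genes. The ER genes stayed the lowest compartment under both ways of combining probe sets, and the 8 lumen genes ranged in median from -0.78 to -0.33 over all settings, or from -0.86 to -0.27 for 7 genes without Dnajc1. The same step turned the Hsp90 class from -0.16 to 1.23, with Hsp90aa1 moving from 0.14 to 0.73 and Hsp90b1 from -0.47 to 1.74. Beside Hsp90b1 it turned Hspa13 and Dnajc10 of the lumen to the opposite sign, at log2 ratios of 0.17 and 0.25, and Dnajc18 of the ER membrane, at -0.36. The other 5 lumen genes, Hspa5, Dnajb9, Dnajb11, Dnajc1 and Dnajc3, were below 0 under every setting tried. Dnajb9 and Dnajb11 have 1 probe set each, so combining probe sets could not change them.

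**Figure D4:**
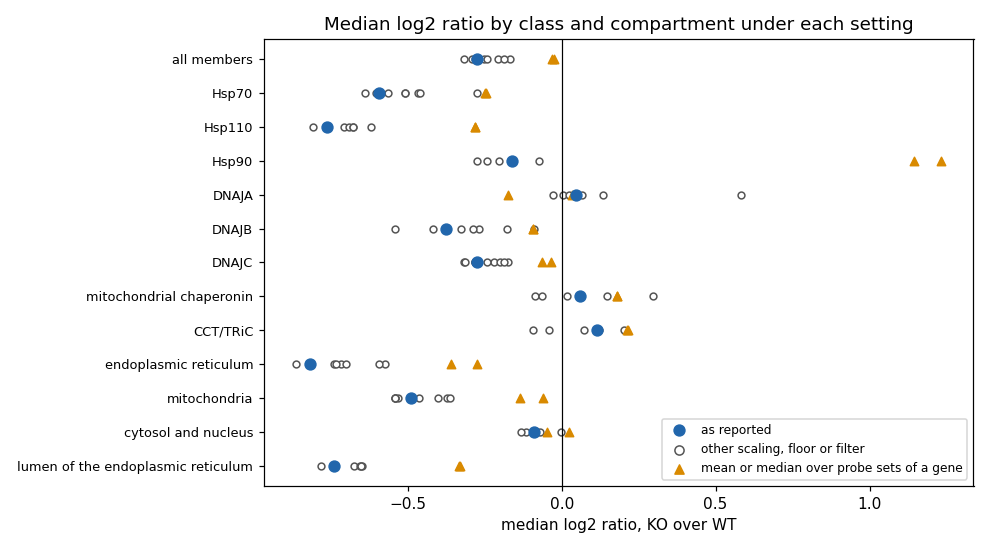
Median log2 ratio (KO over WT) of each class and compartment as reported (blue), with other scalings, floors and filters (open circles) and with the mean or median over the probe sets of a gene (triangles). ER medians lie below 0 at every setting, and the triangles of Hsp90 lie above 1.

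Co-factors of these chaperones, from a list of 59 genes, had no common shift. Of 54 measured, 25 were above 0 and 29 below, and a 2-fold ratio was reached upward in 0 and downward in 3 (5.56%, background 6.72%), with a median log2 ratio of -0.03. The 3 were Sil1, the nucleotide exchange factor of BiP (263 and 93.95, 2.80-fold), Clpp, the protease of the mitochondrial matrix (727 and 247, 2.94-fold, but 0.14 on the log2 scale at its second probe set), and Hsf2, a heat shock factor (178 and 63.9, 2.78-fold, but -0.06 on the log2 scale at its second one). The 18 ER partners and genes of the unfolded protein response had a median of -0.04 with 11 below 0. Among them Atf6, whose product binds the element printed above, read 270 and 138 (log2 ratio -0.97, other probe set -0.84), Herpud1 658 and 398 (-0.72, other probe set -1.67) and Sec63, a J-domain protein of the translocon, 508 and 262 (-0.96, with 3 of 4 other probe sets below 0). Hyou1, the Hsp110 relative of the ER, was level at 484 and 483. Ddit3 (CHOP), a transcription factor induced by ER stress, read 756 and 420 (-0.85), and Xbp1 608 and 409 (-0.57, with other probe sets from -1.13 to 1.31). Higher by their main probe sets were Pdia3 (566 and 1000), Canx (847 and 1412, another probe set at -0.31), Calr (1080 and 1200, another at -0.13) and Atf4 (1613 and 2702, with both other probe sets of opposite sign).

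Mitochondrial partners, a list of co-factors of Hsp70 with the mitochondrial Hsp90 gene Trap1 and the proteases and unfoldases Lonp1, Clpp, Clpx and Clpb, had a median of -0.33, with 7 of 8 below 0 beside 53.7% of all measured genes. The Hsp70 co-factors were the exchange factors Grpel1 (701 and 550) and Grpel2 (296 and 239) and the import factor Timm44 (621 and 357, log2 ratio -0.80). Other probe sets of Timm44 were at -0.67 and 0.13. Those of Clpb and Clpp were above 0, at 0.12 and 0.14. The Hsp70 and Hsp90 co-chaperones of the cytosol had a median of 0.10 over 19 genes, none at least 2-fold, with 11 above 0 and 8 below. The lowest were Bag1 (1019 and 582, log2 ratio -0.81), Hspbp1 (254 and 145, -0.80) and Chordc1 (581 and 342, -0.76). The highest was Stub1 (476 and 725, 0.61, but -0.65 at its other probe set). Unc45b, the myosin chaperone that works with Hsp90 in muscle, read 265 and 240 (log2 ratio -0.15), while the marker genes of differentiated muscle above were lower, with a median log2 ratio of -2.35. Bag3, a partner of Hsp70 in muscle, read 214 and 229, and Stip1 (Hop), which bridges Hsp70 and Hsp90, 455 and 566. Prefoldin subunits and other CCT partners had a median of 0.14 over 8 genes, none at least 2-fold.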

How the data were processed

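Biotin-labelled cRNA of 1 WT and 1 KO myoblast culture was hybridised to 1 Mouse430_2 array each, per the labels' protocols and the file headers. The deposited values are linear signal intensities per probe set. The authors' summary and scaling steps are not given in the sources used here. Trimming 2% of values at each end left means of 126.117 (WT) and 125.528 (KO), so values were used as deposited. The scanner records, deposited settings of another kind than signals, agreed in 40 of 42 fields per the file headers. The number of columns without a sample was 0.

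Names came from the platform annotation, which can be old (34945 probe sets with 1 symbol, 932 with several, 9160 with none), brought up to date by Entrez identifier through RefSeq (GRCm38.p6). Calculations used Python 3.11.15 with pandas 2.3.3 and statsmodels 0.14.6, and were tested on simulated data. The simulation shifted only bright genes, alike at all their probe sets, with less noise than the SD within a gene here. It could not show how differences in dim genes or discordant probe sets are handled. Genes named were all those at least 2-fold different, all measured Hsp70, Hsp110, Hsp90, chaperonin, ER and mitochondrial genes, the 5 with the highest signal in each DnaJ class and the 5 with the most unlike probe sets. Co-factors named beside the 3 past 2-fold were chosen after their values were seen. Compartments were assigned from general knowledge, with the values already seen. The groups of ER lumen genes and of mitochondrial J-domain genes are splits of these compartments, also made with the values seen. The members, lists and compartments were chosen with earlier results of these data known. Alternatives were other scalings, floors, thresholds, filters and ways of combining probe sets.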

Additional observations from a re-analysis of the deposited data

How the results depend on the processing

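With 1 array per group no spread between replicates exists. A median was counted as stable when it moved by less than the SD within a gene (0.66) divided by the square root of its number of genes, and a count when within 1.5 times. No paired analysis was possible because each group holds 1 array. The sign of 0 genes turned with the other floors, no floor, the pseudocount, median scaling or the filter on both arrays. Quantile and loess scaling each turned 1 gene, Cct7, leaving out _s_at and _x_at probe sets turned 2, and the mean over all probe sets turned 14 of 62. Quantile scaling gave 2 genes at least 2-fold higher (background 4.07%), Hspa12a and Cct6a. It turned the DNAJA median to -0.03 and turned those of CCT and the mitochondrial chaperonin to -0.09 each. Loess scaling turned the latter pair to -0.04 and -0.06. Thresholds of 1.5-fold gave 5 higher and 20 lower (backgrounds 12.8% and 19.3%), and 3-fold gave 1 of each (backgrounds 0.747% and 1.51%). The floor at the 20th percentile gave a median of -0.17 over all chaperone genes. With the floor at the 60th percentile the medians were -0.28 (Hsp70), -0.091 (DNAJB) and -0.58 (ER), and Dnaja4 (-0.95) was no longer 2-fold lower, while Dnajc16 (-0.28), Hspa2 (-0.18) and Dnajb14 (-0.05) moved by more than the SD within a gene. With a pseudocount the ER median was -0.59. Genes over the floor on both arrays gave 0.58 for DNAJA. The mean over probe sets gave 1 gene at least 2-fold lower (background 3.36%). The median of all chaperone genes was then -0.025, beside -0.018 for all measured genes. By class the medians were -0.25 (Hsp70), -0.28 (Hsp110), 1.23 (Hsp90), -0.17 (DNAJA), -0.094 (DNAJB) and -0.034 (DNAJC). By compartment they were -0.36 (ER), -0.13 (mitochondria) and 0.025 (cytosol and nucleus). The mean over probe sets, the filter on both arrays and the other floors change which probe sets or genes enter, or compress dim values, by construction. After each scaling the main probe set of a gene was chosen anew. Cct6a has 2 probe sets of close mean signal, at log2 ratios of 0.47 and 1.24 as deposited. For the scalings and the pseudocount the cause was not tested.

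After seeing the data, 2 alternatives were added, beside the ER lumen group without Dnajc1. Setting the medians of probe sets over the floor equal gave 2 genes at least 2-fold higher (background 4.84%). The median of all chaperone genes was then -0.19, beside 0.03 for all measured genes. The median over measured probe sets gave 2 higher and 1 lower (backgrounds 3.00% and 4.42%). The median of all chaperone genes was then -0.033, beside -0.022 for all measured genes. By class the medians were -0.25 (Hsp70), -0.28 (Hsp110), 1.14 (Hsp90), -0.094 (DNAJB) and -0.066 (DNAJC). By compartment they were -0.27 (ER) and -0.062 (mitochondria). No gene at least 2-fold different changed sign under any setting. The number of arrays limits all values, and dim genes near the floor of 47.04 have compressed ratios.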

Other observations

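Genes of any function with the ER stress response element in a promoter window numbered 17 among measured genes, with 10 below 0 and a median log2 ratio of -0.25. Without the 3 chaperone genes the median over 14 was 0.01, with 7 below 0. For the heat shock element the median was -0.07 over 69 measured genes, and for the forkhead core site -0.01 over 367, beside -0.06 for all measured genes. These medians are descriptions, with no test.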
